A study of Mus musculus with 4 samples.

Results

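Methylation was examined at the loci of 6 genes through which the liver answers glucocorticoid hormone and fasting: Nr3c1, Hsd11b1, Pck1, G6pc, Ppara and Ppargc1a. Within a fixed window of build mm9 around each gene, every non-control probe of a 2-colour tiling array that starts there was taken, whatever its value. All 6 windows held probes: 22 for Nr3c1, 45 for Hsd11b1, 19 for Pck1, 22 for G6pc, 70 for Ppara and 24 for Ppargc1a, together 202 of the 415749 probes used. None of the 202 carried an outlier flag. The windows can cut a gene short or reach beyond it, and an mm9 gene annotation was not used here, so probes are given by position and not by exon, intron or distance from the start site.

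Livers came from C57BL/6J mouse fetuses at gestation day 18. Dams of the food restricted group received 50% of the chow eaten by the control dams from gestation day 10 to 17, and control dams ate freely. Each group was 1 pool of fetal liver DNA described as N = 6 and called here the control and the restricted pool. The sources used here do not say whether N counts fetuses or litters, nor their sex. Methylated DNA was immunoprecipitated and hybridised against the total DNA of the same pool (MeDIP-chip), once in each dye orientation, which gave 4 arrays, with both pools on each of 2 slides. Since both arrays of a pool measured the same DNA, differences between the pools could not be tested against biological spread; no p-value is given, and values are printed for both slides. The control pool took the same array position on both slides, so position and pool cannot be told apart.

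The liver of a fasting animal makes glucose and burns fat. Glucocorticoid enters the cell, binds the receptor encoded by Nr3c1, and the receptor switches on target genes; Hsd11b1 encodes the enzyme that regenerates active glucocorticoid inside the cell. Pck1 and G6pc encode the enzymes of an early committed and of the last step of glucose production, Ppara the nuclear receptor that turns on fatty acid oxidation, and Ppargc1a a coactivator that works with both receptors. Before birth glucose comes from the mother, and Pck1 and G6pc are switched on in the liver around birth. Methylation of cytosine in CpG pairs at a promoter generally goes with a silent gene, and the level studied here is a relative enrichment that also depends on how many CpGs a fragment holds.

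RefSeq promoters (GRCm38.p6, 250 bases before to 50 after a start) were at hand for 5 of the 6 genes, all but Nr3c1. They differed in the number of CpGs, on which the strength of precipitation depends: 30 in Ppara, and 6 in Hsd11b1, 6 in Pck1, 5 in Ppargc1a and 4 in G6pc, against a median of 7 over 32851 promoters. The 3 shown are those of the most enriched locus (Pck1), of the CpG-rich promoter (Ppara) and of the locus with the largest share of differing probes (Ppargc1a). They lie at chr2:173152823-173153122 on the plus strand, chr15:85735526-85735825 on the plus strand and chr5:51567676-51567975 on the minus strand, and are written 5′ to 3′ with every CpG in capitals.
Pck1: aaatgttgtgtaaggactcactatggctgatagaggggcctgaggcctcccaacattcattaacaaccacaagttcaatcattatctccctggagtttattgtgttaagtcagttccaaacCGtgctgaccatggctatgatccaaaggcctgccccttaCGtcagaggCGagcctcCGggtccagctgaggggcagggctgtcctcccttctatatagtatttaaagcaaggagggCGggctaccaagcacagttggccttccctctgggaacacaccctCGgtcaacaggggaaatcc
Ppara: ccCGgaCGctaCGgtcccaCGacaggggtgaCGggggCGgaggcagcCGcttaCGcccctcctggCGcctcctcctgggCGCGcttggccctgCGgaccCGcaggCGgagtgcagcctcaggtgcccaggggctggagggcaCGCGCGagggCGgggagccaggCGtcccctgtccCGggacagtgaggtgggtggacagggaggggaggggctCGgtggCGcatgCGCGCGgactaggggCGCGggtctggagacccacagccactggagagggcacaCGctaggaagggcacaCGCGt
Ppargc1a: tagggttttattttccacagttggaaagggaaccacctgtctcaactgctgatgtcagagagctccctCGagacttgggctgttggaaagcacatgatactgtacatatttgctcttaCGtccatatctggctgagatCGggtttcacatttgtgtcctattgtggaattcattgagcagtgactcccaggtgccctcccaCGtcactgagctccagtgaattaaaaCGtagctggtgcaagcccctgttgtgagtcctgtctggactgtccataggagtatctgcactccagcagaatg
These coordinates are of another build than the probes, so it was not determined which probes cover them. Letter matches were searched on both strands. The core TGACG of a cAMP response element, the site at which fasting signals reach the genome through CREB, occurred once in each of these 3 promoters and in neither Hsd11b1 nor G6pc, and 20.8% of all promoters held it. The full element TGACGTCA, which contains that core, was in none of the 5 and in 1.79% of all promoters. The arm AGAACA of the glucocorticoid receptor's element was in none of the 5 and in 19.0% of all promoters. The arm AGGTCA of the element that PPAR binds occurred once in G6pc, and in 16.3% of all promoters. A TATAAA box occurred once in G6pc, and in 13.6% of all promoters. A match is not a binding site, and a missing match covers these letters and this window only.

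Enrichment is given as M, the log2 of immunoprecipitated over total DNA signal with each array centred on its median, so that 0 is the middle of the array. D is the difference in M within a slide, restricted minus control. Signals of a single channel are compared as log2 with the channel centred on its median on each array. Such a difference is relative to the array and does not give the absolute signal. A feature is called higher or lower when D is at least 0.5 in size (1.41-fold) with 1 sign on both slides. Neighbouring probes were also joined into regions valued at their median M, which gave 56653 regions in all and 24 at these loci, holding 197 of the 202 probes. Over the whole array fewer probes gave a clear immunoprecipitated signal in the control pool: it was well above background at 72.2% and 72.0% of probes on the control arrays and at 79.9% and 80.6% on the restricted arrays. At the 202 members the shares were 76.2% on both control arrays, and 84.7% and 88.6%. In the deposited value table the columns of the restricted pool on slide 1 and of the control pool on slide 2 hold each other's scanner values, so which of these arrays belongs to which pool rests on the dyes in the titles, which the scanner files follow.

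The 6 loci differed widely in enrichment, and the order was the same on all 4 arrays. Pck1 was the most enriched, with a median M over its probes of 2.11 and 1.91 in the control pool and 1.86 and 1.93 in the restricted pool on slides 1 and 2. G6pc followed with 0.66 and 1.20 against 0.59 and 1.02, and Ppara with 0.44 and 0.25 against 0.45 and 0.15. Nr3c1 had -0.41 and -0.28 against -0.02 and 0.14, Hsd11b1 -0.66 and -0.80 against -0.47 and -0.42, and Ppargc1a was the least enriched with -1.06 and -1.27 against -0.85 and -0.93. The ranges of neighbouring loci over the 4 arrays did not overlap, although Ppara reached down to 0.15 and Nr3c1 up to 0.14, and Nr3c1 down to -0.41 and Hsd11b1 up to -0.42. The median Pck1 probe stood at percentile 81.5 of all probes by mean M and the median Ppargc1a probe at 22.7.

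Enrichment also varied along the loci. Runs of at least 3 neighbouring probes above 1 on all 4 arrays and runs below 0 on all 4 were both present at Nr3c1, Hsd11b1 and Ppara, while Pck1 and G6pc held only runs above 1 and Ppargc1a only runs below 0. Mean M of single probes spanned from 4.47 (Hsd11b1) to 5.73 (Ppara) log2 units within 1 locus. Of the 202 probes, 62 had M above 1 on all 4 arrays (30.7%, against 27.2% of all probes) and 26 had M below -1 on all 4 (12.9%, against 15.2%). In regions, 10 of 24 had a mean M above 1 (41.7%, against 28.7% of all regions) and 5 lay below -1 (20.8%, against 24.9%).

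**Figure D1:**
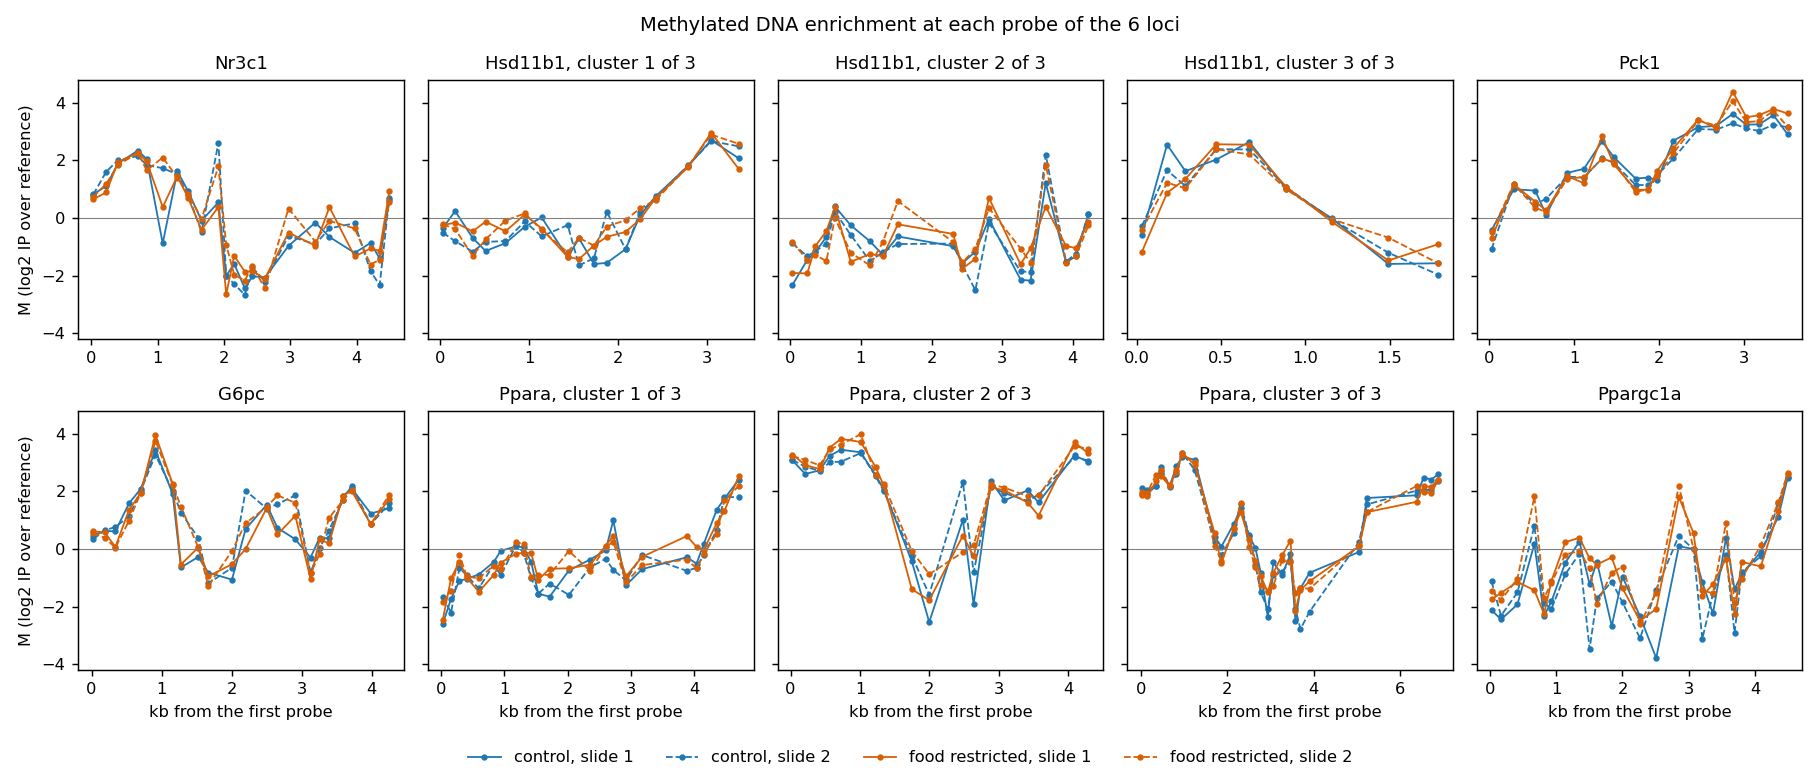
M (log2 immunoprecipitated over reference signal, vertical axis) at each probe against its distance in kb from the first probe of the cluster, in 10 probe clusters of the 6 loci; blue lines are the control pool, orange the restricted pool, solid lines slide 1 and dashed lines slide 2. The 4 lines part widely along Ppargc1a, where M is mostly below 0, and Pck1 reaches M above 3 on all arrays.

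None of the 24 regions was called higher and none lower, against 4.52% and 0.643% of all regions, shares at which few of 24 regions would be called. Regions with D above 0 on both slides numbered 10 (41.7%, against 39.1% of all) and with D below 0 on both 7 (29.2%, against 23.7%), and the median of mean D was -0.03 against 0.06 over all regions. Of the single probes, 14 were called higher (6.93%, against 9.85% of all probes), 4 lower (1.98%, against 2.48%), and 7 passed the size with opposite signs (3.47%, against 3.84%). These shares were near those of all probes and set the loci apart in neither direction. Higher and lower probes numbered 22 and 1 with loess, where 11.9% and 2.37% of all probes were called. They numbered 22 and 2 without centring (12.5% and 1.68% of all) and 9 and 0 with normexp (5.40% and 0.0108%). With arrays centred on their densest value, which moved the median D of all probes from 0.07 to -0.07, they were 9 and 5 (6.33% and 4.47%), and with the running median taken off 6 and 3 (4.27% and 3.49%). Among the 145 probes well above background on all 4 arrays, 7 were higher (4.83%, against 7.87% of all such probes) and 1 was lower, where 0.566% of all such probes were.

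**Figure D2:**
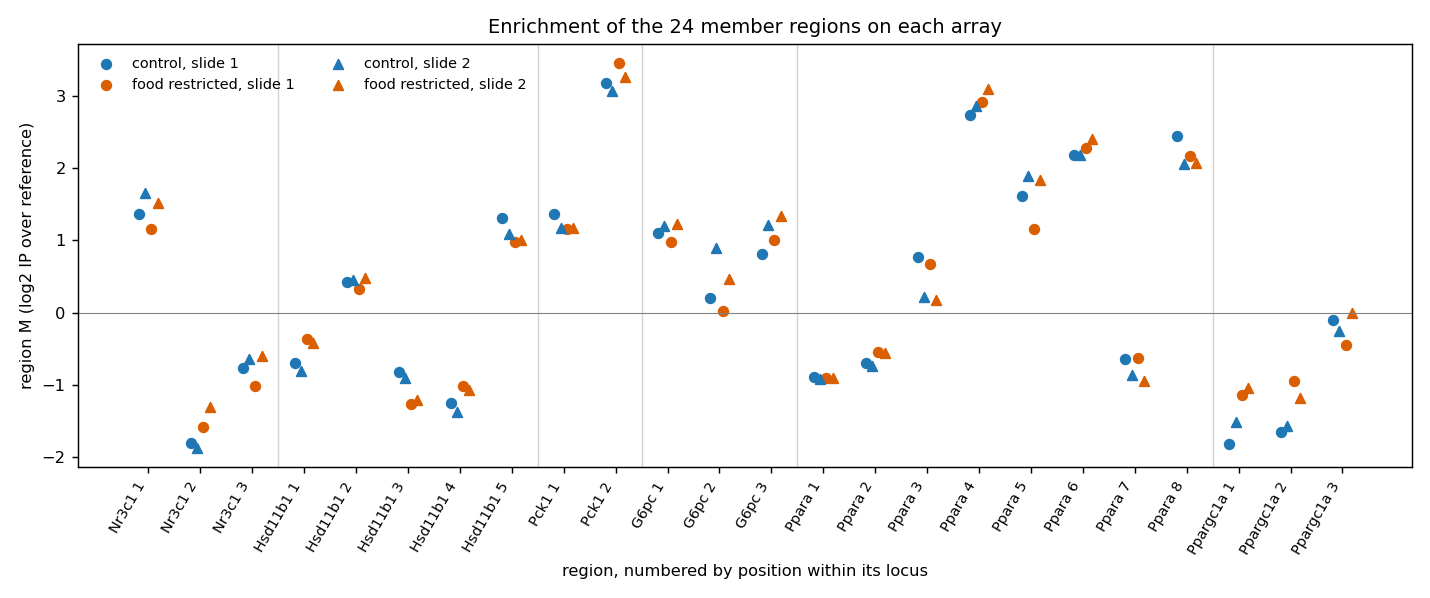
M of the 24 regions (log2, vertical axis) on each array, ordered by locus and position; circles are slide 1 and triangles slide 2, blue the control and orange the restricted pool. Pck1 region 2 and Ppara region 4 stand highest, at mean M of 3.24 and 2.89, and the colours are parted in the same direction most widely in Ppargc1a regions 1 and 2.

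Nr3c1, the glucocorticoid receptor, held an enriched stretch beside a depleted one and no called probe. Its 22 probes form 1 cluster on chromosome 18 from 39645860 to 39650374. The first region, from 39645860 to 39647350 (8 probes), was enriched, with M of 1.36 and 1.66 in the control pool and 1.16 and 1.52 in the restricted pool. The adjoining region from 39647493 to 39648861 (8 probes) was the most depleted of all 24, with -1.80 and -1.86 against -1.58 and -1.31, and stood at percentile 4.28 of all regions. Within these, 3 neighbouring probes from 39646235 to 39646722 lay above 1 on all arrays and 5 from 39647865 to 39648503 below 0 on all arrays, so the step from one to the other was present in both pools. The depleted region had the largest D of the locus, 0.22 and 0.56, against medians of 0.30 and 0.33 in its decile of regions by mean M. There 4 of its 8 probes were not well above background on either control array. No Nr3c1 probe was higher or lower, and 1 had opposite signs. The difference of the locus medians was 0.39 and 0.42, but the median of the probes' own D was -0.08 and 0.07, since the locus median falls between its enriched and its depleted probes. The mean of the locus difference over the slides, 0.41, turned to -0.0036 with normexp. With the running median of D along M taken off, only the median of the probes' own D was computed, at -0.01 on both slides.

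Hsd11b1, the enzyme that regenerates active glucocorticoid, was covered on chromosome 1 in 3 clusters, from 195067557 to 195070943, 195089256 to 195093508 and 195098170 to 195099987. Most of it was weakly enriched, with 26 of 45 probes below 0 on all 4 arrays and 6 above 1. The highest region, in the third cluster from 195098170 to 195099686 (8 probes), had M of 1.31 and 1.09 in the control pool and 0.97 and 1.01 in the restricted pool. The lowest, from 195091534 to 195093508 (10 probes), had -1.25 and -1.38 against -1.01 and -1.07, with 7 of its probes not well above background on either control array. The largest D of the locus was negative, -0.44 and -0.30, at 195089256 to 195090809 (9 probes), where M was -0.81 and -0.91 in the control pool and -1.26 and -1.21 in the restricted pool. This region was called lower, at -0.63 and -0.52, once the running median was taken off. It had -0.27 and -0.13 with normexp and -0.10 and 0.01 in the immunoprecipitated channel alone. Without dim immunoprecipitated probes its D was 0.01 and -0.03. In the other direction, 195067557 to 195069145 had D of 0.33 and 0.38. Of single probes 3 were higher (6.67%, against 9.85% of all probes) and 1 lower (2.22%, against 2.48%). The lower one, from 195090083 to 195090142, had M of -0.26 and -0.59 in the control pool and -1.53 and -1.21 in the restricted pool, where 1 of the 2 arrays was well above background. Its immunoprecipitated signal differed by -1.04 and -0.67. The difference of the locus medians was 0.19 and 0.38, while the median of the probes' own D was 0.07 and 0.05. The mean difference of the locus medians turned to -0.13 with loess and -0.01 with normexp.

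Pck1, the enzyme that commits carbon to glucose production, was the most enriched locus and was measured throughout. Its 19 probes lie on chromosome 2 from 172976230 to 172979771, and all were well above background on 3 arrays and 18 on the control array of slide 2. The first region, from 172976230 to 172977983 (9 probes), had M of 1.36 and 1.17 in the control pool and 1.15 and 1.17 in the restricted pool. The second, from 172978074 to 172979771 (10 probes), had 3.17 and 3.07 against 3.45 and 3.26, the highest of the 24, at percentile 96.4 of all regions. A run of 9 neighbouring probes there stayed above 1 on every array, and 6 probes above 3. The second region had the larger D, 0.28 and 0.19, against medians of 0.17 and 0.32 in the highest decile of regions by M; with loess it was called higher, at 0.81 and 0.94. In the immunoprecipitated channel alone the first region was called lower, at -0.51 and -0.52, where the median over all probes was -0.23 and -0.20. A single probe was called higher (5.26%, against 9.85% of all probes), from 172979076 to 172979120. Its M was 3.60 and 3.28 in the control pool and 4.38 and 4.05 in the restricted pool. It is singled out after its values were seen. Relative to each array's channel median, its immunoprecipitated signal differed by -0.34 and -0.31, restricted minus control. Its reference signal differed by -0.88 and -0.80, where the median over all probes was 0.10 on both slides. The higher ratio thus went with a relative reference signal that was lower by more than the immunoprecipitated one. Under other scalings of the ratio the mean D of this probe ran from 0.17 with the running median taken off to 1.57 with loess. The difference of the locus medians, -0.25 and 0.02, had no common sign, and its mean of -0.11 turned to 0.58 with loess.

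G6pc, the enzyme that releases free glucose, was measured by 22 probes on chromosome 11 from 101225549 to 101229831 and had an intermediate level. Its highest region, from 101225549 to 101226855 (8 probes), had M of 1.1 and 1.20 in the control pool and 0.98 and 1.22 in the restricted pool. Within it 3 neighbouring probes from 101226225 to 101226737 reached a median of 2.08 and 2.02 against 2.26 and 2.23. The middle region, from 101227046 to 101228234 (6 probes), was both the lowest, with 0.21 and 0.89 against 0.03 and 0.47, and the one with the largest D, -0.18 and -0.42. That direction turned with loess (0.22 and 0.11), without dim reference or saturated probes (0.31 and 0.13) and in the immunoprecipitated channel alone (0.22 and 0.40). Its values were higher on slide 2 in both pools, and 3 of its probes were not well above background on either control array. At G6pc 1 probe was higher (4.55%, against 9.85% of all probes) and 2 were lower (9.09%, against 2.48%). It was the only locus of the 6 with more lower than higher probes. That order turned to 2 higher and 0 lower with loess, 2 and 1 without centring and 1 and 0 with normexp. Among other settings it stayed with arrays centred on their densest value (0 and 2) and with the running median taken off (0 and 1). One of the lower probes, from 101227720 to 101227779, with D of -0.69 and -1.13, was well above background in neither channel on any array and has no fold; its mean D was 0.03 with loess. The other, from 101225862 to 101225916, was measured on all arrays, with M of 0.61 and 0.76 in the control pool and 0.07 and 0.05 in the restricted pool. The higher probe was not well above background in either pool. The difference of the locus medians was -0.07 and -0.18, and its mean turned to 0.13 with loess and 0.10 with normexp.

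Ppara, the nuclear receptor of fatty acid oxidation, had the widest range. Its 70 probes fall into 3 clusters on chromosome 15, from 85562501 to 85567230, 85604499 to 85608818 and 85638738 to 85645642. The first was depleted over most of its length, with a median M of -0.45 and -0.69 in the control pool and -0.35 and -0.57 in the restricted pool and reached 0.77 and 0.22 against 0.67 and 0.18 in its last region. The second was enriched, with 2.46 and 2.43 against 2.48 and 2.41, and the third intermediate, with 1.14 and 1.05 against 1.00 and 0.99. The highest region, from 85604499 to 85606275 (9 probes), had 2.73 and 2.85 against 2.91 and 3.09. The lowest, from 85562501 to 85564067 (11 probes), had -0.88 and -0.92 against -0.90 on both slides, and its D of -0.02 and 0.01 was the smallest of the 24 regions. Within the third cluster 8 probes from 85638738 to 85640012 lay above 1 on all arrays, and 4 probes from 85641485 to 85642028 lay below 0 on all arrays, with medians of -0.86 and -1.21 against -0.89 and -1.27. The pools followed each other through this drop. The largest D of a region was -0.46 and -0.05, at 85606467 to 85608101 (7 probes). There 3 of its probes were not well above background on either control array. That direction turned with loess (0.33 and 0.63) and normexp (0.19 and 0.33). It stayed with arrays centred on their densest value (-0.66 and -0.14).

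Of the Ppara probes 4 were higher (5.71%, against 9.85% of all probes) and 1 lower (1.43%, against 2.48%). Of the 4, 1 was well above background on all arrays. With loess the counts were 12 (17.1%) and 0, against 11.9% and 2.37% of all probes. The probe from 85607106 to 85607165 had M of -1.92 and -0.81 in the control pool, where it was not well above background, and -0.25 and 0.13 in the restricted pool, where 1 array was. Its D of 1.67 and 0.94 was 0.37 and 0.30 with normexp. The lower probe, from 85606952 to 85607011, had D of -0.55 and -2.44 with no array well above background in either channel, and has no fold. The difference of the locus medians, 0.01 and -0.10, was close to 0, and the mean moved to -0.36 when the window was widened by 10 kb on both sides. There the median of the probes' own D was -0.03 and 0.14. The regions that the widening added had mean D of 0.06, 0.32 and 0.05, so the -0.36 does not describe them.

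Ppargc1a, the coactivator that joins glucose production to oxidative metabolism, had the lowest level and the most probes called higher. Its 24 probes lie on chromosome 5 from 51944011 to 51948526. Of these 5 were higher (20.8%, against 9.85% of all probes) and 0 lower, where the background of lower probes was 2.48%. Probes of the same deciles of mean M were higher in 11.3% of cases. D was above 0 on both slides at 13 probes (54.2%, against 37.1% of all) and below 0 on both at 1 (4.17%, against 24.8%). The slides did not rank the probes alike: D correlated at r = -0.11 between them over the 24 probes, which share slide and pool, against 0.29 over all probes. Relative to each array's channel median, the immunoprecipitated signal of the restricted pool exceeded the control by a median of 0.31 and 0.29. Over all probes it differed by -0.23 and -0.20 on this scale. The median background-subtracted signal before centring was higher in the restricted pool, at 63.2 and 43.8 against 39.1 and 29.5. The centred reference signal differed by 0.13 and 0.20, against 0.10 on both slides over all probes.

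The first Ppargc1a region, from 51944011 to 51945545 (9 probes), had M of -1.82 and -1.51 in the control pool and -1.14 and -1.03 in the restricted pool. Its D of 0.67 and 0.47 missed the size on slide 2. The second, from 51945596 to 51946890 (6 probes), had -1.65 and -1.56 against -0.95 and -1.17, with D of 0.70 and 0.39. With loess D was -0.04 and 0.05 in the first and 0.53 and -0.03 in the second, and with normexp -0.13 and -0.02 in the first and 0.14 and 0.18 in the second. Before such correction the pools did not overlap in either region, and these were the largest mean D of the 24, at 0.57 and 0.54. Regions of their decile of mean M had median D of 0.24 and 0.25, and 8.26% of them were called higher. The third, from 51947051 to 51948526 (9 probes), was the highest of the locus, with -0.10 and -0.26 against -0.45 and 0.00, and its D of -0.35 and 0.26 had no common sign.

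Dim signal was more frequent in the control pool at this locus. Over the locus 10 of 24 probes were well above background on each control array, and 15 and 17 on the restricted arrays. A share of 37.5% lacked a signal well above background in the control pool only, against 8.34% of all probes. Among all such probes 30.2% were called higher, and among the 9 at Ppargc1a 1 was (11.1%). The part of the dim signal in the result was not tested. Of the 5 higher probes 4 were among the 9 that were well above background on all 4 arrays, where 7.87% of all probes were higher. With dim immunoprecipitated probes left out, the first region had D of 0.71 and 0.79 on its remaining probes, at most 4 of 9. The second region then kept too few probes to be valued. Over the 9 probes left at the locus, the difference of the medians was 0.29 and 0.16. With loess, 0 Ppargc1a probes were higher, where 11.9% of all probes were, and the mean difference of the locus medians turned from 0.27 to -0.07, and with normexp 1 was higher (4.17%, against 5.40% of all probes).

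**Figure D3:**
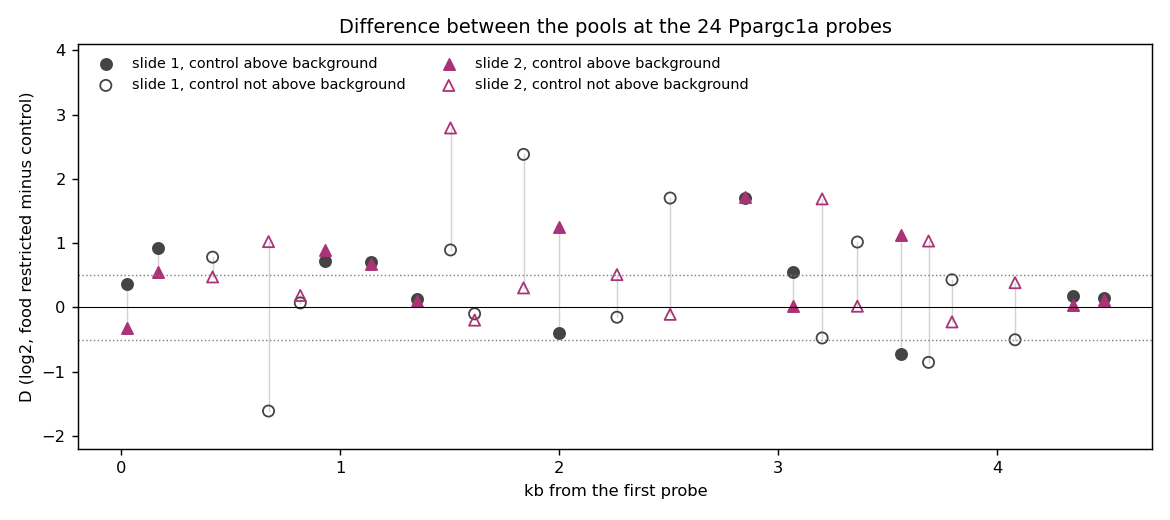
D (log2, food restricted minus control, vertical axis) at the 24 Ppargc1a probes against distance in kb from the first; circles are slide 1, triangles slide 2, joined by a grey line, open where neither control array was well above background, and dotted lines mark 0.5 in size. The filled pair near 1.7 on both slides is the probe from 51946831 to 51946890, and the open pairs are spread most between the slides.

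The probe from 51946831 to 51946890 had the largest difference of all 202 by the smaller of its values on the slides. Its M was 0.10 and 0.46 in the control pool and 1.80 and 2.19 in the restricted pool, a D of 1.70 and 1.73, or 3.28-fold. Both restricted arrays lay above both control arrays. It was well above background on all 4 arrays, its immunoprecipitated signal differed by 1.65 and 2.06 and its reference signal by 0.19 and 0.62. With loess its D was 0.78 and 0.44, short of the size on slide 2, and with normexp 0.97 and 0.86. Its neighbours did not share the difference. The probe before it, from 51946489 to 51946548, was not well above background in either pool and had D of 1.70 and -0.11, and the probe after it, from 51947051 to 51947110, was measured on all arrays and had 0.56 and 0.02. A further probe, from 51945486 to 51945545, had D of 0.89 and 2.79 but no control array measured it well above background, and with normexp its D was 0.09 and 0.03, so no fold is given.

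**Figure D4:**
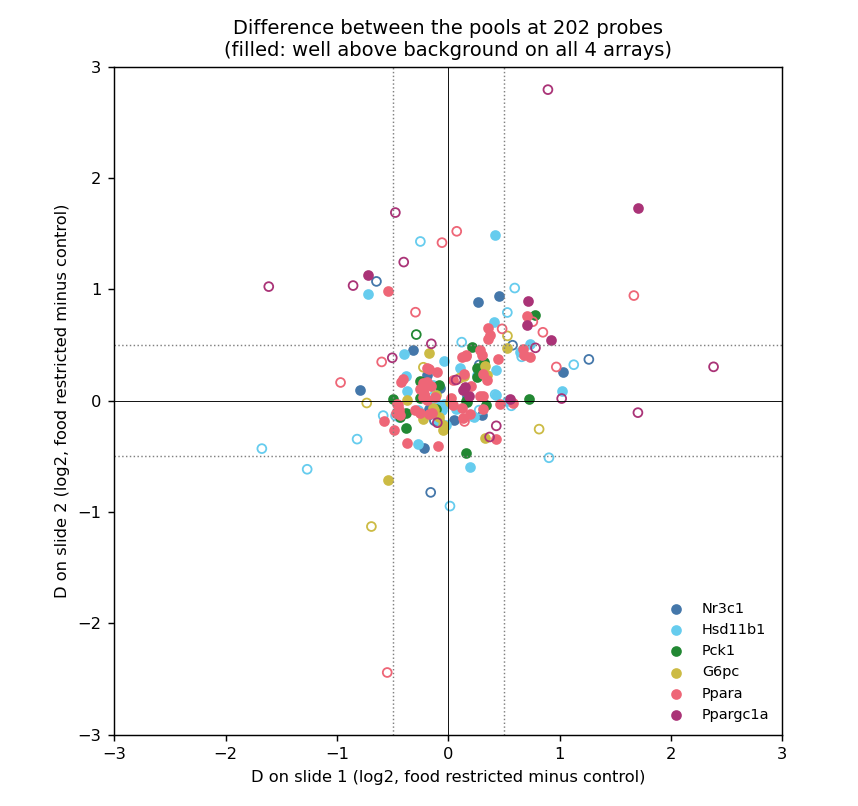
D on slide 1 (horizontal, log2) against D on slide 2 (vertical, log2) at the 202 probes, coloured by locus and filled where the probe was well above background on all 4 arrays; dotted lines mark 0.5 in size. Most filled points lie inside the dotted square, and the isolated filled point at 1.70 and 1.73 belongs to Ppargc1a.

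**Figure D5:**
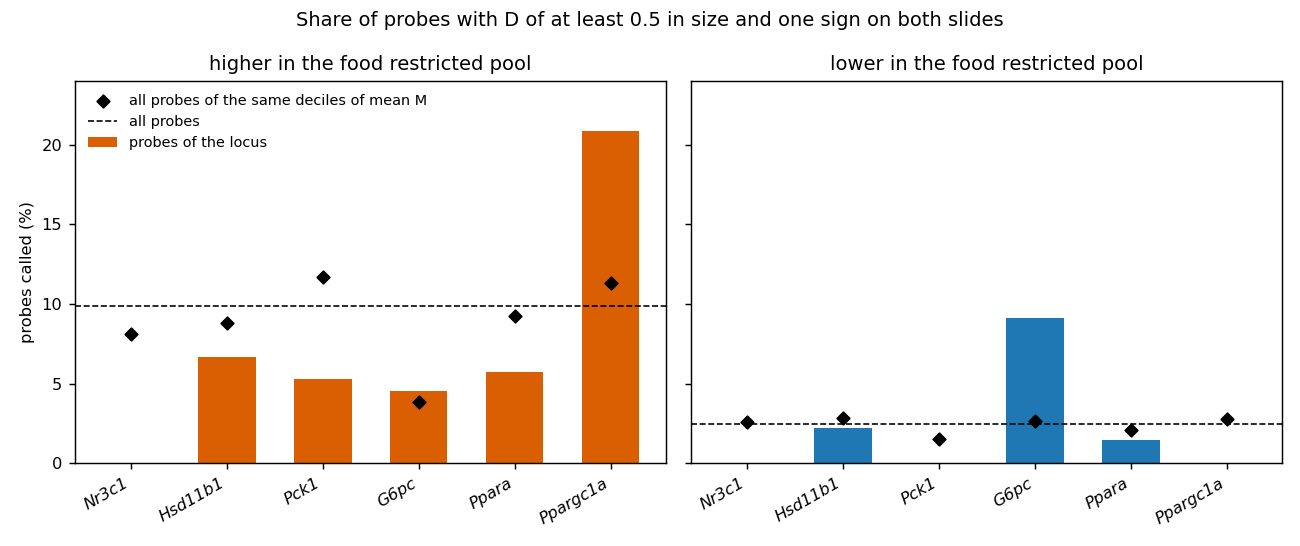
Share of the probes of each locus called higher (left) or lower (right) in the restricted pool, in percent; the dashed line is the share over all probes (9.85% and 2.48%) and the diamonds the share among all probes of the same deciles of mean M. Ppargc1a stands above both marks for higher probes at 20.8%, and Nr3c1 has no bar on either side.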

How the data were processed

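The 4 scanner files were deposited by the authors as made with Agilent Feature Extraction 10.5.1.1 and place probes on build mm9, per the file headers. Their processed intensity has background subtracted and a dye factor applied within the array, per the file headers; median intensity and flags were taken as deposited. The deposited log10 ratio was not used. The deposited value table holds log2 of red over green, equal to the scanner values within 0.001, with column medians from -0.23 to 0.24, and was an alternative. The sources used here do not name the antibody, the fragmentation or any amplification.

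Of 415814 probes, 65 with outlier flags were left out. Regions joined probes whose starts lay at most 500 bp apart, in parts of at most 2000 bp with at least 3 probes, and belonged to a locus by their centre. Values were processed in Python 3.11.15 and limma 3.58.1 (R 4.3.3). The calling code was tried on simulated arrays with independent noise between probes, which checks the code and not the rate of false calls here. No test was run, since each group was 1 pool; the number of arrays limits the precision. Arrays were paired by slide, as file headers and dyes give it; their deviations from the pool means correlated at r = 0.34 over probes.

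The loci, and the rules for naming regions and probes, were chosen with earlier results of these data known. Named were all loci, called regions, the highest, lowest and most different region of each locus, and at most 3 called probes per direction, by the smaller D of the slides; others were chosen after their values were seen. A list of further pathway genes was not used, for want of mm9 positions.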

Additional observations from a re-analysis of the deposited data

How the results depend on the processing

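Counts are given as higher and lower, with the percentages of all probes or regions called under the same setting in brackets. The 202 probes gave 14 and 4 (9.85% and 2.48%). They gave 22 and 1 with loess (11.9% and 2.37%), 22 and 2 without centring (12.5% and 1.68%), 9 and 0 with normexp (5.40% and 0.0108%), 5 and 2 with quantile normalization (4.30% and 3.70%), 9 and 5 with the densest value as centre (6.33% and 4.47%) and 6 and 3 with the running median taken off (4.27% and 3.49%). Without dim reference or saturated probes 190 were left and gave 14 and 2 (10.2% and 1.27%). Without dim immunoprecipitated probes 145 were left and gave 7 and 1 (7.87% and 0.566%). The 202 gave 13 and 9 in the immunoprecipitated channel alone (6.33% and 4.59%). They gave 37 and 7 at a size of 0.3 (17.1% and 6.15%), and 1 and 0 at a size of 1.0 (1.98% and 0.434%). With 1 slide left out, 37 probes were higher on either slide (21.1% and 22.3% of all) and 8 to 19 lower (9.12% and 11.2%). Taking D across the slides, with no replicate block for the slide, gave 14 and 4 (8.55% and 1.75%), and the deposited value table, which holds the same measurements, 14 and 4.

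Of the 24 regions 0 and 0 were called (4.52% and 0.643% of all). Called higher was 1 region with loess (8.52%), the second of Pck1. The first Ppargc1a region alone was called higher without centring (7.12%) and without dim reference or saturated probes (5.19%). It alone was also called without dim immunoprecipitated probes (3.90%), where 23 regions were left at the loci. With means over probes 1 region was called higher (3.12%), the second of Ppargc1a. With regions of up to 1000 bp, of which 43 lay at these loci, 2 were higher (6.05%), 1 at Hsd11b1 and 1 at Ppara. At a size of 0.3 there were 3 of the 24 (12.2%). With 1 slide left out 1 to 2 were higher: the depleted Nr3c1 region from slide 2 alone (13.7%), and the first and second Ppargc1a regions from slide 1 alone (12.3%). Called lower was 1 region each with the running median taken off (1.02%), with regions of up to 1000 bp (0.779%), at a size of 0.3 (2.68%) and in the immunoprecipitated channel alone (1.75%). With the running median taken off, the median of the probes' own D stood in place of the difference of the locus medians, so that setting is left out here. Over the other alternatives the mean difference of the locus medians ran from -0.0036 to 0.49 at Nr3c1, -0.13 to 0.41 at Hsd11b1 and -0.25 to 0.58 at Pck1. It ran from -0.29 to 0.13 at G6pc, -0.36 to 0.13 at Ppara and -0.07 to 0.47 at Ppargc1a. Its sign thus turned in at least 1 alternative at each locus, at Nr3c1 only to -0.0036, with -0.17 and 0.17 on the slides. With the running median counted in, the sign stayed in 17 of 18 alternatives at Ppargc1a and 16 at Nr3c1 and Hsd11b1. It stayed in 14 at Pck1 and G6pc and 11 at Ppara. Some alternatives, such as the call sizes, leave this value unchanged. The cause of these changes was not tested. Of the 202 probes, 17 were well above background in neither pool and 23 in the restricted pool only, which limits any difference there.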
